A study of Mus musculus with 12 samples.

Results

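The 9 genes described here belong to transforming growth factor beta (TGF-β) and activin signalling: the ligand genes Tgfb1, Tgfb2, Tgfb3 and Inhba, the latent-complex gene Ltbp1, the matrix gene Tgfbi, and the transcriptional repressors Ski, Skil and Tgif1. They were taken by gene symbol from a table of raw read counts for 37310 mouse genes. All 9 were present, and all 9 were among the 16630 genes that passed the filter on low counts and were tested. The libraries are from total RNA, depleted of ribosomal RNA, of lines derived from mouse embryonic fibroblasts (MEF) and grown in medium with serum. The 4 groups of 3 libraries were cells labelled as lacking HP1γ after 100 nM phorbol 12-myristate 13-acetate (PMA) for 30 min (KO PMA), the same line untreated (KO), the line given HP1γ back after the same PMA treatment (HPg PMA), and that line untreated (HPg). HP1γ, the product of Cbx3, is a chromatin protein that recognises methylated lysine on histone H3. PMA is a lipid-like compound that switches on protein kinase C enzymes. The series calls the libraries of a group biological triplicates. Each genotype is represented by 1 line, so line and genotype cannot be told apart. PMA was added in DMSO, and it is not stated whether untreated cells received DMSO.

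TGF-β ligands are made as precursors and secreted in a latent complex, in which the cleaved prodomain holds the mature dimer inactive and is linked to a latent TGF-β binding protein that anchors it in the matrix. Once released, the ligand assembles type I and type II receptor kinases, which phosphorylate SMAD2 and SMAD3, and these enter the nucleus with SMAD4. Activin A, the dimer of the chains encoded by Inhba, signals through its own receptors to the same SMADs. SKI, SKIL (also called SnoN) and TGIF1 bind SMAD complexes at target genes and recruit co-repressors and histone deacetylases. Skil and Smad7, an inhibitory SMAD, are themselves known targets of TGF-β, and fibroblasts are among the cells that answer TGF-β with matrix and cytoskeletal genes.

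Total counts ranged from 111458145 to 159929347 per library. Cbx3 was called changed between the lines in neither state: its log2 fold change was -0.28 (adjusted p = 0.269) for KO PMA against HPg PMA and -0.08 (adjusted p = 0.838) for KO against HPg. Gene-level counts cannot tell an intact transcript from one with a deleted part, so Cbx3 does not check the genotype labels. The immediate-early genes Fos, Egr1, Ier2, Dusp1 and Junb, all 5 of a list used as a check of the PMA treatment, were higher with PMA in both lines. The call of Dusp1 in HPg cells was lost in all 7 fits that left out libraries (adjusted p up to 0.265), and those of Dusp1 in KO (0.0933) and Egr1 in HPg cells (0.0547) without the 4 libraries numbered 2. Of 12 fibroblast markers, 10 averaged at least 1 CPM in every group, and their summed level was 8719 to 14192 CPM per library (CPM, read counts scaled to library size with TMM factors). That sum is uneven: Col1a1 averaged 3779 to 5321 CPM per group, but Col1a2 7.62 to 12.3 CPM and Dcn 3.98 to 7.01 CPM. The marker Thy1 was at 0 in HPg cells. Summed markers of other cell types were lower, at 5.09 to 10.5 CPM for 6 epithelial markers, 1.90 to 8.80 CPM for 4 endothelial markers and 0.165 to 0.512 CPM for 4 neural markers. The sum of 4 muscle markers was higher in the KO line, at 1.06 to 1.29 CPM in KO PMA against 0.278 to 0.469 CPM in HPg PMA, and 0.962 to 1.35 CPM in KO against 0.355 to 0.897 CPM in HPg libraries. That of 6 blood and immune markers was higher with PMA, at 2.20 to 3.25 CPM in KO PMA against 1.37 to 1.85 CPM in KO, and 2.00 to 2.65 CPM in HPg PMA against 1.2 to 1.47 CPM in HPg libraries. The part of either in the results was not tested. Of the 4 muscle markers, 1 averaged at least 1 CPM in KO PMA and in KO cells, and 0 did in HPg PMA and HPg cells. Myod1 was at 0 in all 4 groups, and Myog in every group but KO. Of the 4 neural markers, Tubb3 was at 0 in all 4 groups.

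The members differed widely in level. On the scale of mean CPM per kb of exon in untreated HPg cells, Ltbp1 was at 118 ± 24.1 and Ski at 57.0 ± 22.4, followed by Tgfb2 at 13.5 ± 5.20 and Tgfb3 at 12.7 ± 1.60 (SD, n = 3 each). Tgif1 stood at 6.64 ± 1.38 CPM per kb, Skil at 3.92 ± 0.445 and Inhba at 1.81 ± 0.257. The lowest levels per kb were those of Tgfbi, 0.437 ± 0.0563, and Tgfb1, 0.435 ± 0.134, which did not differ beyond their spread. Per kb of the longest transcript Tgfb1 was at 0.853 and Tgfbi at 0.548, so the order of these 2 depends on the length used. The latent binding protein was thus the most abundant transcript per kb of the 9, and Tgfb1 was the least abundant of the 3 TGF-β ligands in every group. As shares of the summed Tgfb1, Tgfb2 and Tgfb3 level per kb, Tgfb1 made up 6.35% ± 1.35 in KO PMA, 2.83% ± 1.13 in KO, 3.79% ± 1.00 in HPg PMA and 1.74% ± 0.776 in HPg cells. Tgfb3 took 67.3% ± 4.91 of that sum in KO PMA, 60.4% ± 7.35 in KO, 51.3% ± 2.79 in HPg PMA and 48.7% ± 5.87 in HPg cells, and Tgfb2 the rest. Per kb of the longest transcript the share of Tgfb1 was larger, at 11.3% ± 2.31 in KO PMA, 5.16% ± 2.07 in KO, 6.78% ± 1.76 in HPg PMA and 3.16% ± 1.4 in HPg cells, and it was the smallest of the 3 in each group with either length. These are bulk levels, in which fewer expressing cells and less RNA per cell cannot be told apart.

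**Figure D1:**
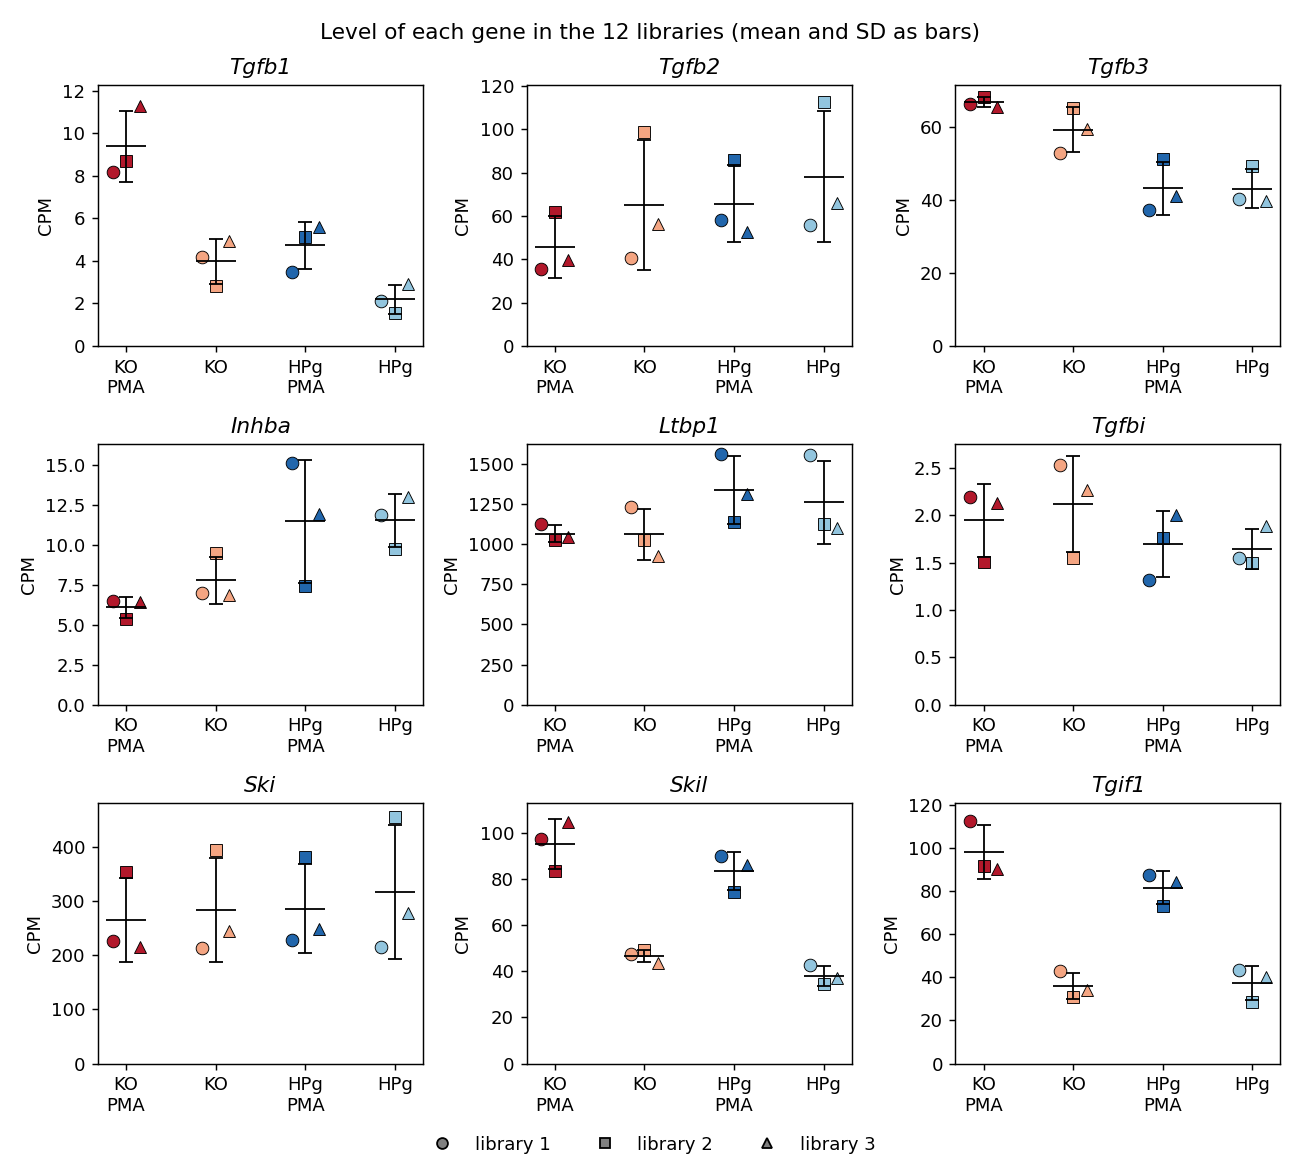
Level of the 9 genes in each of the 12 libraries, as CPM on a linear axis from 0, with 1 panel per gene and the groups in the order KO PMA, KO, HPg PMA and HPg. Symbols mark the library number, and bars give the mean and SD of 3 libraries. Skil and Tgif1 with PMA lie above all untreated libraries, Tgfb3 is higher in KO than in HPg cells, and in the Tgfb2 and Ski panels the square of library 2 is the highest of each group.

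Among the repressors, Skil and Tgif1 rose with PMA in both lines and Ski did not pass the test in either. Tgfb1 rose with PMA in KO cells, the only ligand gene that did. In all, 3 of 9 members were called higher in KO PMA against KO, where 2.81% of all tested genes were called higher and 1.63% lower, and 0 of 9 lower. In HPg PMA against HPg, 2 of 9 were called higher and 0 lower, against 2.53% and 0.92% of all genes. A call is an adjusted p below 0.05 in the edgeR quasi-likelihood test, adjusted over all 16630 genes. The median log2 fold change of the 9 members was 0.01 in KO and 0.04 in HPg cells, against medians of -0.02 in each line over all tested genes.

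Skil encodes the SKI-like protein SnoN, a SMAD-binding repressor. Its level was 97.1, 83.5 and 104.6 CPM in KO PMA libraries 1 to 3, against 47.2, 49.0 and 43.7 CPM in KO libraries 1 to 3. It was 89.9, 74.3 and 85.9 CPM in HPg PMA, against 42.7, 34.3 and 36.9 CPM in HPg libraries. Every PMA library was above every untreated library of either line, and the PMA and untreated groups did not overlap. The log2 fold change was 1.03 (SE 0.13, adjusted p = 0.000512) in KO and 1.13 (SE 0.13, adjusted p = 0.000386) in HPg cells. With each library left out in turn and in the other alternatives run, both calls held, with adjusted p up to 0.00647 in KO and up to 0.00825 in HPg cells.

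Tgif1 encodes a homeodomain repressor that binds SMAD2 and SMAD3 and recruits histone deacetylases. It had 112.7, 91.5 and 90.1 CPM in KO PMA libraries, against 42.7, 30.8 and 34.0 CPM in KO libraries. In the other line it had 87.4, 72.9 and 84.2 CPM in HPg PMA, against 43.4, 28.6 and 40.1 CPM in HPg libraries. Here too the lowest PMA library stood above the highest untreated one. The log2 fold change was 1.45 (SE 0.18, adjusted p = 0.00043) in KO and 1.13 (SE 0.17, adjusted p = 0.0037) in HPg cells, and both calls held in the 14 alternatives run, with adjusted p up to 0.00522 in KO and 0.0233 in HPg cells.

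Ski encodes the repressor after which SnoN was named. Its values were 227, 355 and 215 CPM in KO PMA libraries 1 to 3, against 214, 395 and 244 CPM in KO libraries 1 to 3. In HPg PMA they were 229, 382 and 249.8 CPM, against 216, 456 and 279 CPM in HPg libraries. The groups overlapped fully, and library 2 was the highest of each group. The log2 fold change with PMA was -0.10 (95% interval -0.80 to 0.60, adjusted p = 0.944) in KO and -0.15 (-0.84 to 0.55, adjusted p = 0.882) in HPg cells. Both intervals include changes of either sign. With the library number as a block the values were -0.08 (SE 0.10) and -0.12 (SE 0.10), again without a call.

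Tgfb1, the ligand best known from fibrosis and immune regulation, was a low-abundance transcript. It had 8.17, 8.69 and 11.3 CPM in KO PMA libraries, against 4.17, 2.84 and 4.93 CPM in KO libraries. In the other line it had 3.47, 5.13 and 5.57 CPM in HPg PMA, against 2.10, 1.57 and 2.91 CPM in HPg libraries. In both lines the lowest PMA library was above the highest untreated one, and the untreated values rest on 187 to 693 counts per library. The log2 fold change was 1.24 (SE 0.28, adjusted p = 0.0251) in KO cells, and 1.10 (SE 0.28, adjusted p = 0.0502) in HPg cells, just short of the threshold. With the library number as a block both were called, at 1.25 (adjusted p = 0.000584) and 1.13 (adjusted p = 0.00163). The unblocked call in KO cells was lost without KO library 1 (adjusted p = 0.0665), KO library 2 (0.0906), KO PMA library 2 (0.064) or KO PMA library 3 (0.116), with log2 fold changes of 1.05 to 1.29. In HPg cells a call was gained without HPg PMA library 1 (1.29, adjusted p = 0.0472), with RLE factors (adjusted p = 0.0495), with no filter (0.0377) and with DESeq2 (0.00295).

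The other ligand genes did not pass the test for PMA. Tgfb2 had a log2 fold change of -0.52 (95% interval -1.28 to 0.25, adjusted p = 0.556) in KO and -0.25 (-1.01 to 0.51, adjusted p = 0.787) in HPg cells. In the blocked fit Tgfb2 was called lower with PMA in KO cells, at -0.47 (SE 0.12, adjusted p = 0.0174), and KO PMA was the lower library in all 3 pairs of the same number. Tgfb3 had 0.17 (-0.13 to 0.47) in KO and 0.00 (-0.29 to 0.30) in HPg cells, and Inhba -0.35 (-0.86 to 0.16) and -0.01 (-0.51 to 0.50). Ltbp1, the carrier of the latent complex, had 0.01 (-0.42 to 0.43) in KO and 0.08 (-0.34 to 0.51) in HPg cells. Tgfbi, a matrix protein named for its induction by TGF-β, had -0.12 (-0.68 to 0.44) in KO and 0.04 (-0.52 to 0.60) in HPg cells, with 1.31 to 2.54 CPM over all 12 libraries. In the blocked fit 3 members were called higher and 1 lower in KO PMA against KO, where 6.79% and 6.56% of all genes were called, and 3 higher and 0 lower in HPg PMA against HPg, where 8.62% and 6.19% were.

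**Figure D2:**
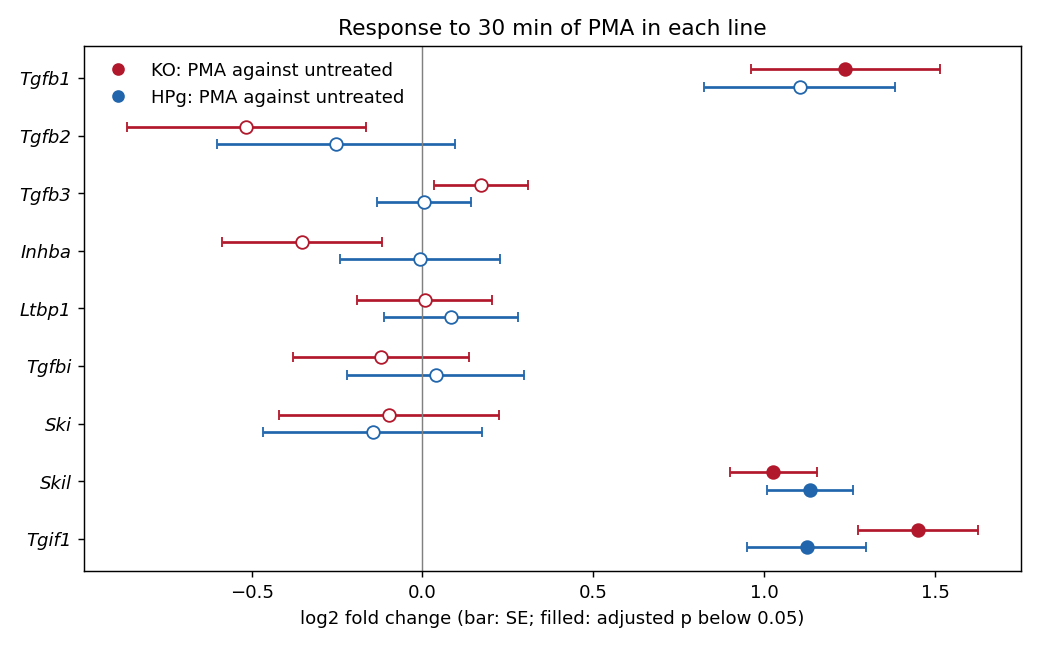
Log2 fold change of each gene after PMA against untreated cells of the same line (horizontal axis), with bars of 1 SE, KO in red and HPg in blue. Filled points passed an adjusted p of 0.05. Skil and Tgif1 are filled in both lines, between 1.03 and 1.45, and Tgfb1 is filled in KO (1.24) and open in HPg (1.10).

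Whether the PMA response differed between the lines was tested as the interaction, the PMA effect in KO minus that in HPg cells. None of the 9 members was called, and neither was any other gene: 0% were called higher and 0% lower, with 328 of 16630 genes at an unadjusted p below 0.05, and the same 0% in each direction in the blocked fit. DESeq2 called 1 gene, not a member. The difference was 0.33 for Tgif1 (95% interval -0.20 to 0.85), 0.13 for Tgfb1 (-0.71 to 0.98) and -0.11 for Skil (-0.49 to 0.28). For Tgfb3 it was 0.17 (-0.25 to 0.59) and for Inhba -0.34 (-1.06 to 0.37). The larger value of Tgif1 and the call of Tgfb1 in KO alone are therefore not shown to be differences between the lines.

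Between the lines, the ligand gene Tgfb3 was higher in KO than in HPg cells under PMA, and no member passed the test without PMA. The interaction of Tgfb3 was not called, so its line difference is not shown to depend on PMA. With the library number as a block, Tgfb1 and Tgfb3 were called higher in KO cells without PMA as well, and 4 members were called with PMA, as given gene by gene. Without the block, 1 of 9 members was called higher and 0 lower in KO PMA against HPg PMA, where 1.29% of all genes were called higher and 1.18% lower. In KO against HPg 0 of 9 were called, against 0.806% higher and 0.511% lower over all genes. The members' median log2 fold change was 0.19 with PMA and -0.06 without, against 0.01 over all genes in both comparisons.

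Tgfb3, a ligand known from palate closure and scarless repair, had 66.5, 68.4 and 65.6 CPM in KO PMA, against 37.4, 51.4 and 41.1 CPM in HPg PMA libraries. Without PMA it had 53.0, 65.4 and 59.4 CPM in KO, against 40.4, 49.4 and 39.7 CPM in HPg libraries. The lines did not overlap in either state. The log2 fold change was 0.63 (SE 0.14, adjusted p = 0.0377) with PMA and 0.46 (SE 0.14, adjusted p = 0.14) without, and in the blocked fit 0.64 (adjusted p = 0.000565) and 0.46 (adjusted p = 0.00553). Leaving out 1 library ended the call under PMA in 5 of 6 fits: without KO PMA library 1 (adjusted p = 0.113), 2 (0.104) or 3 (0.0779), and without HPg PMA library 1 (0.18) or 3 (0.144), with values of 0.52 to 0.64. It was also lost with library sizes as the only scaling (adjusted p = 0.0623) and in a fit of these 2 groups alone (0.052), which called Tgfb1 instead (0.0486). Tgfb3 lies over Ttll5 on the opposite strand. The libraries were directional, but for the counting the strand setting was not stated, so reads of the 2 genes may not have been separated.

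Inhba, the activin βA chain, went the other way in value. It had 6.51, 5.35 and 6.45 CPM in KO PMA, against 15.1, 7.43 and 11.9 CPM in HPg PMA libraries. Without PMA the values were 7.02, 9.48 and 6.87 CPM in KO, against 11.9, 9.74 and 13.0 CPM in HPg libraries. All KO libraries were below all HPg libraries of the same state. The log2 fold change was -0.91 (SE 0.24, adjusted p = 0.0624) with PMA, which the blocked fit called (-0.89, adjusted p = 0.00984), and -0.57 (SE 0.23, adjusted p = 0.287) without PMA, which it did not (-0.54, adjusted p = 0.106). Without HPg PMA library 2, the lowest of its group, the value with PMA was called (-1.15, adjusted p = 0.0153). Inhba also has overlapping noncoding genes on the opposite strand, to which the same uncertainty applies. It applies as well to Tgfb2, which overlaps Gm26169 and Gm29491 on the opposite strand. Ltbp1 overlaps Gm6276 on its own strand, where strand does not separate reads.

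Tgfb1 was higher in KO than in HPg cells by 0.99 (SE 0.28, adjusted p = 0.0791) with PMA and by 0.86 (SE 0.28, adjusted p = 0.173) without, values that did not pass the test and that the blocked fit called in both states (0.98, adjusted p = 0.00306, and 0.87, adjusted p = 0.00974). KO exceeded HPg in all 3 pairs of the same number in each state. Tgfb2 had 35.6, 61.8 and 39.5 CPM in KO PMA, against 58.3, 86.0 and 52.6 CPM in HPg PMA libraries. Without PMA it had 40.5, 98.7 and 56.5 CPM in KO, against 56.0, 112.5 and 66.2 CPM in HPg libraries, so that the groups overlapped in both states while KO was lower in every same-number pair. Its log2 fold change was -0.52 (SE 0.35, adjusted p = 0.461) with PMA, called only with the block (-0.54, adjusted p = 0.0065), and -0.26 (SE 0.35, adjusted p = 0.808) without.

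The remaining members were called in neither fit between the lines. Ltbp1 averaged 1066 ± 53.5 CPM in KO PMA and 1338 ± 213 CPM in HPg PMA cells, with -0.33 (95% interval -0.75 to 0.10) between them, and 1062 ± 159 CPM in KO and 1262 ± 258 CPM in HPg cells, with -0.25 (-0.68 to 0.18). Skil had 0.19 (-0.08 to 0.46) with and 0.30 (0.02 to 0.57, adjusted p = 0.299) without PMA, and Tgif1 0.27 (-0.11 to 0.64) and -0.06 (-0.43 to 0.31). Ski had -0.11 (-0.81 to 0.59) and -0.16 (-0.85 to 0.54), and Tgfbi 0.20 (-0.36 to 0.76) and 0.36 (-0.20 to 0.92). The libraries of the lines did not overlap for Ltbp1 and Tgif1 with PMA, nor for Skil without it. In the other cases among these members they overlapped. In the blocked fit 2 members were called higher and 2 lower in KO PMA against HPg PMA, where 9.49% and 9.09% of all genes were called, and 2 higher and 0 lower in KO against HPg, where 7.08% and 5.44% were.

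**Figure D3:**
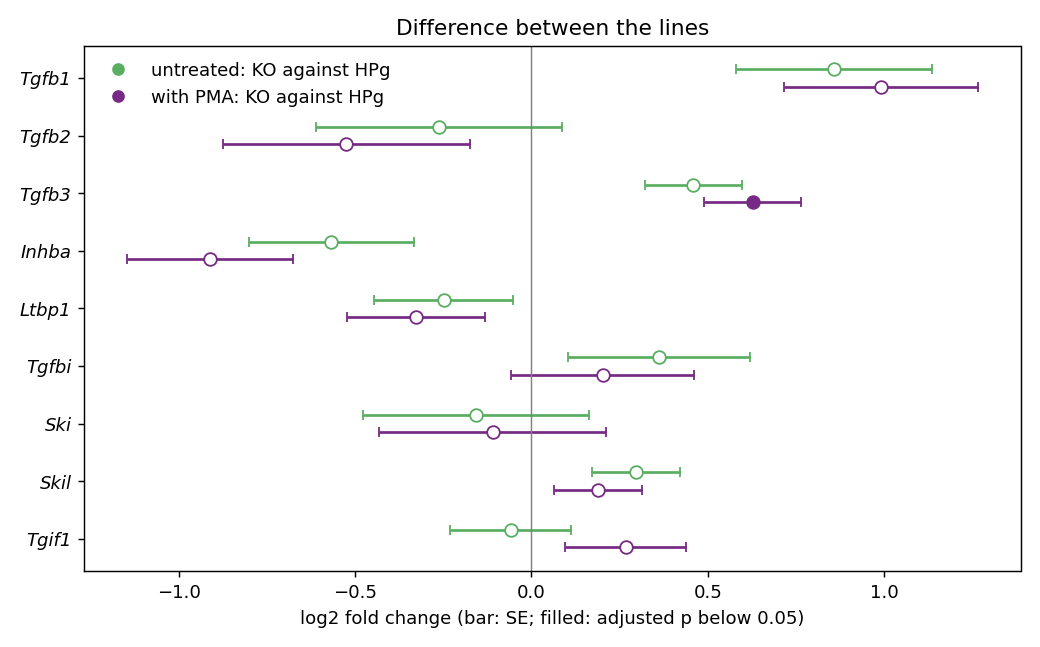
Log2 fold change of each gene in KO against HPg cells (horizontal axis), untreated in green and with PMA in purple, with bars of 1 SE. The only filled point, adjusted p below 0.05, is Tgfb3 with PMA (0.63). Inhba lies at -0.91 and -0.57 and Tgfb1 at 0.99 and 0.86, with and without PMA.

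In order of level, Tgfb1 ran KO PMA, HPg PMA, KO and HPg, and only HPg PMA and KO did not differ beyond 1 SD of each. Skil and Tgif1 had both PMA groups above both untreated groups, with the PMA groups of the lines within their spread of each other. The Tgif1 libraries of KO PMA were all above those of HPg PMA, without a call. Skil in untreated KO cells (46.6 ± 2.72 CPM) lay beyond the spread of HPg cells (38.0 ± 4.32 CPM), and Tgif1 did not (35.9 ± 6.15 against 37.4 ± 7.78 CPM). Tgfb3 split by line, both KO groups lying above both HPg groups. For Tgfb2, Inhba, Ltbp1, Tgfbi and Ski no neighbouring groups in the order differed beyond their spread.

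The spread within groups followed the library number. Tgfb2 and Ski were highest in library 2 of all 4 groups, at 0.55 and 0.51 above the group mean of log2 CPM on average, and below it in library 1 and library 3 of every group. Tgfb3 was also above the mean in library 2 of all 4 groups, by 0.16. Ltbp1 and Tgif1 were above it in library 1 and below it in library 2 of all 4 groups, and Tgfb1 and Tgfbi were above it in library 3 of all 4. What libraries of 1 number have in common is not labelled. Rpph1, Rn7sk and Rmrp, noncoding RNAs, made up 8.59% to 12.5% of the counts in libraries numbered 2 and 9.69% to 19.2% in the others, and their part in the spread was not tested. Without the 4 libraries numbered 2, 3 members were called in KO PMA against KO, 2 in HPg PMA against HPg, 3 in KO PMA against HPg PMA (Tgfb1, Tgfb3 at 0.75 and Inhba at -1.06) and 1 in KO against HPg (Inhba at -0.84). In those fits the shares of all tested genes called higher and lower were 2.33% and 0.751%, 2.01% and 0.451%, 4.68% and 3.49%, and 2.57% and 0.985%, in the same order of comparisons, so that between the lines the shares over all genes were also larger than with all libraries.

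**Figure D4:**
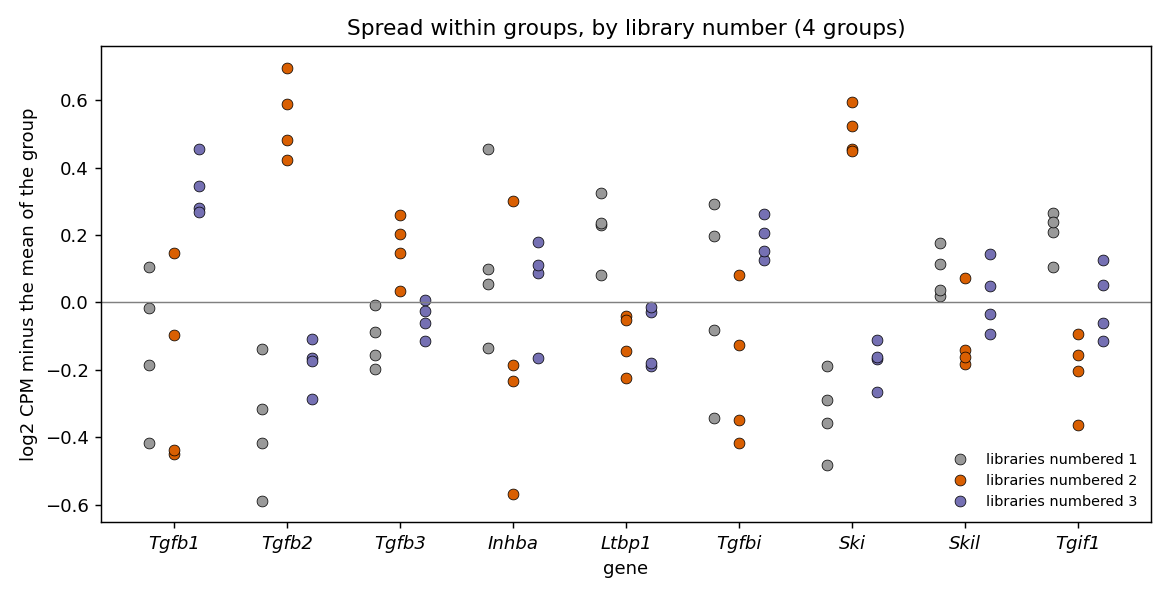
Log2 CPM minus the group mean for each gene, with 4 points per library number, 1 from each group. Points of libraries numbered 2 lie between 0.42 and 0.70 for Tgfb2 and between 0.45 and 0.59 for Ski, above all points of libraries 1 and 3.

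Over the 12 libraries, which share lines, treatment and library number, Skil and Tgif1 had a Pearson correlation of log2 CPM of 0.95, Tgfb2 and Ski of 0.89, and Tgfb3 and Inhba of -0.89. The genes most like each member by this measure, among 11112 candidates, were as follows. Tgif1 was most like Dlgap1 (0.98), Arl4c (0.98) and Hbegf (0.98), and Skil most like Smndc1 (0.98), Arrdc3 (0.98) and Ccl20 (0.97). Tgfb1 was most like Serpina3h (0.99), Mapkapk3 (0.98) and Ankrd28 (0.97). Tgfb2 was most like Ppp1r12b (0.98), and Ski most like Mdga1 (0.99). Tgfb3 was most like Kctd15 (0.97), Inhba most like Clcn3 (0.97), Ltbp1 most like Immt (0.93) and Tgfbi most like Lysmd1 (0.92).

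Promoter sequences are shown for 2 of the 3 members that moved with PMA, and for Ltbp1, which did not pass that test. RefSeq (GRCm38.p6) gave windows from 250 bases before to 50 bases from the start for 7 of the 9 members, 12 windows in all, with 5 for Tgif1 and 2 for Ltbp1. Tgfb3 and Skil had none. The windows below are chr7:25686752-25687051 on the plus strand for Tgfb1, chr17:70851161-70851460 on the minus strand for the third Tgif1 window, and chr17:75005279-75005578 on the plus strand for the first Ltbp1 window. Capitals mark motif matches on either strand.
Tgfb1: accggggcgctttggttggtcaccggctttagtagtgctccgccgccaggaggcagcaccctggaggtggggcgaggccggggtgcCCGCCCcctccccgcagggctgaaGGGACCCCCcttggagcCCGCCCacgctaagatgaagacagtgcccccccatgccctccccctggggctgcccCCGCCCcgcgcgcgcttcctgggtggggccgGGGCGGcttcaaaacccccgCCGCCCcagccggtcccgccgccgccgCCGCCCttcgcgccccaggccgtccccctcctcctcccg
Tgif1: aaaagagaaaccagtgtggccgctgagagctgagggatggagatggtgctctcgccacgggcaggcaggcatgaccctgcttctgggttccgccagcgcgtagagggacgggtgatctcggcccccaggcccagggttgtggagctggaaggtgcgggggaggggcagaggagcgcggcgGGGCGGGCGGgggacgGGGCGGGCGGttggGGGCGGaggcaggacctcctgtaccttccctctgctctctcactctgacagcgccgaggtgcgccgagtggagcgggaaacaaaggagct
Ltbp1: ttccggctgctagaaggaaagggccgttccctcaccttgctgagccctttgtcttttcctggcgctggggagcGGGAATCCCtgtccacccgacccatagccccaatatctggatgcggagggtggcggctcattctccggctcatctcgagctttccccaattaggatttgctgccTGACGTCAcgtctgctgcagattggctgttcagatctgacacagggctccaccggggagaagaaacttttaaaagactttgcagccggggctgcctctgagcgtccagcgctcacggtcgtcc

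The Tgfb1 window held 6 GC boxes (GGGCGG), of which the nearest before the start spans bases -16 to -11, counting the start base as 0, and 1 match to the NF-kB motif (GGG, a purine, any base, 2 pyrimidines, CC). The third Tgif1 window held 5 GC boxes between bases -70 and -35, with overlapping pairs. The first Ltbp1 window held 1 cyclic AMP response element (TGACGTCA) at bases -73 to -66 and 1 NF-kB match. Of all 32851 promoter windows of this length, 35.7% held a GC box, 9.38% an NF-kB match and 1.79% a TGACGTCA. The SMAD motif CAGACA, found in 21% of all windows, was present in the Tgfb2 window, in the first and second Tgif1 windows and in the second Ltbp1 window. Ski had 6 GC boxes and Tgfbi 2. The fourth Tgif1 window held 1 GC box at bases -86 to -81 and 1 NF-kB match at bases -185 to -177. The fifth Tgif1 window and the Inhba window held no match to any motif searched. No window of a member held the AP-1 motif TGANTCA (7.81% of all windows), the SRF CArG box (1.63%) or the SMAD palindrome GTCTAGAC (0.213%).

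The rest of the pathway was read from lists of its other genes. With PMA, 2.81% of all tested genes were called higher and 1.63% lower in KO, and 2.53% and 0.92% in HPg cells. Among SMADs and their regulators, 1 of 9 tested genes was called higher and 0 lower with PMA in each line, the inhibitory Smad7. It averaged 122.9 ± 8.06 CPM in KO PMA and 56.6 ± 9.18 CPM in KO cells (1.12, SE 0.17, adjusted p = 0.00228), and 104.0 ± 17.4 CPM in HPg PMA and 57.0 ± 9.87 CPM in HPg cells (0.87, SE 0.17, adjusted p = 0.0139). The call in HPg cells was lost without HPg library 1 (adjusted p = 0.0547) or 3 (0.0687) and without HPg PMA library 2 (0.0568) or 3 (0.0587), and with only these 2 groups fitted (0.0647), and the call in KO cells held in the 14 alternatives run. In the blocked fit Smad2 (0.38, adjusted p = 0.0119) and Rnf111 (0.32, adjusted p = 0.0197) were also called higher in HPg cells. There 8.62% of all genes were called higher and 6.19% lower. The median log2 fold change of that list was 0.20 in KO and 0.23 in HPg cells.

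Of 18 target genes, 4 were called higher and 0 lower with PMA, in each line Pmepa1, Cdkn1a, Bhlhe40 and Junb. The shares of all tested genes called higher and lower were 2.81% and 1.63% in KO, and 2.53% and 0.92% in HPg cells. The median log2 fold change of the 18 targets was 0.02 in KO and 0.03 in HPg cells. Cdkn1a, the cell cycle inhibitor p21, had 1.89 (adjusted p = 0.000119) in KO and 1.51 (adjusted p = 0.000982) in HPg cells. Bhlhe40, a helix-loop-helix repressor, had 2.71 (adjusted p = 5.82e-05) and 2.10 (adjusted p = 0.000616), and Junb, an AP-1 subunit also in the list used to check PMA, 4.54 (adjusted p = 3.92e-06) and 4.17 (adjusted p = 9.06e-06). Pmepa1, an inhibitor of SMAD signalling, had 0.90 (adjusted p = 0.00616) in KO and 0.67 (adjusted p = 0.0376) in HPg cells. The Pmepa1 call in HPg cells was kept in 2 of 7 fits without libraries, and adjusted p reached 0.129. The contractile and matrix targets, Acta2, Tagln, Cnn1, Col1a1, Col1a2, Fn1, Postn, Eln and Timp3, were not called in either line, with log2 fold changes from -0.22 (Postn) to 0.38 (Tagln) in KO cells. In HPg cells their means also went both ways. Col1a1 averaged 3779 ± 1370 CPM in HPg PMA and 4861 ± 2164 CPM in HPg cells, and Timp3 851 ± 302 and 711 ± 212 CPM. In the blocked fit Ccn2 joined the genes called higher in both lines (0.55, adjusted p = 0.00291, in KO and 0.34, adjusted p = 0.0398, in HPg cells, there lost with the GC content and length correction at adjusted p = 0.103), and Nox4 was lower in KO cells (-0.86, adjusted p = 0.0237). The blocked fit called 6.79% of all genes higher and 6.56% lower in KO, and 8.62% and 6.19% in HPg cells.

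**Figure D5:**
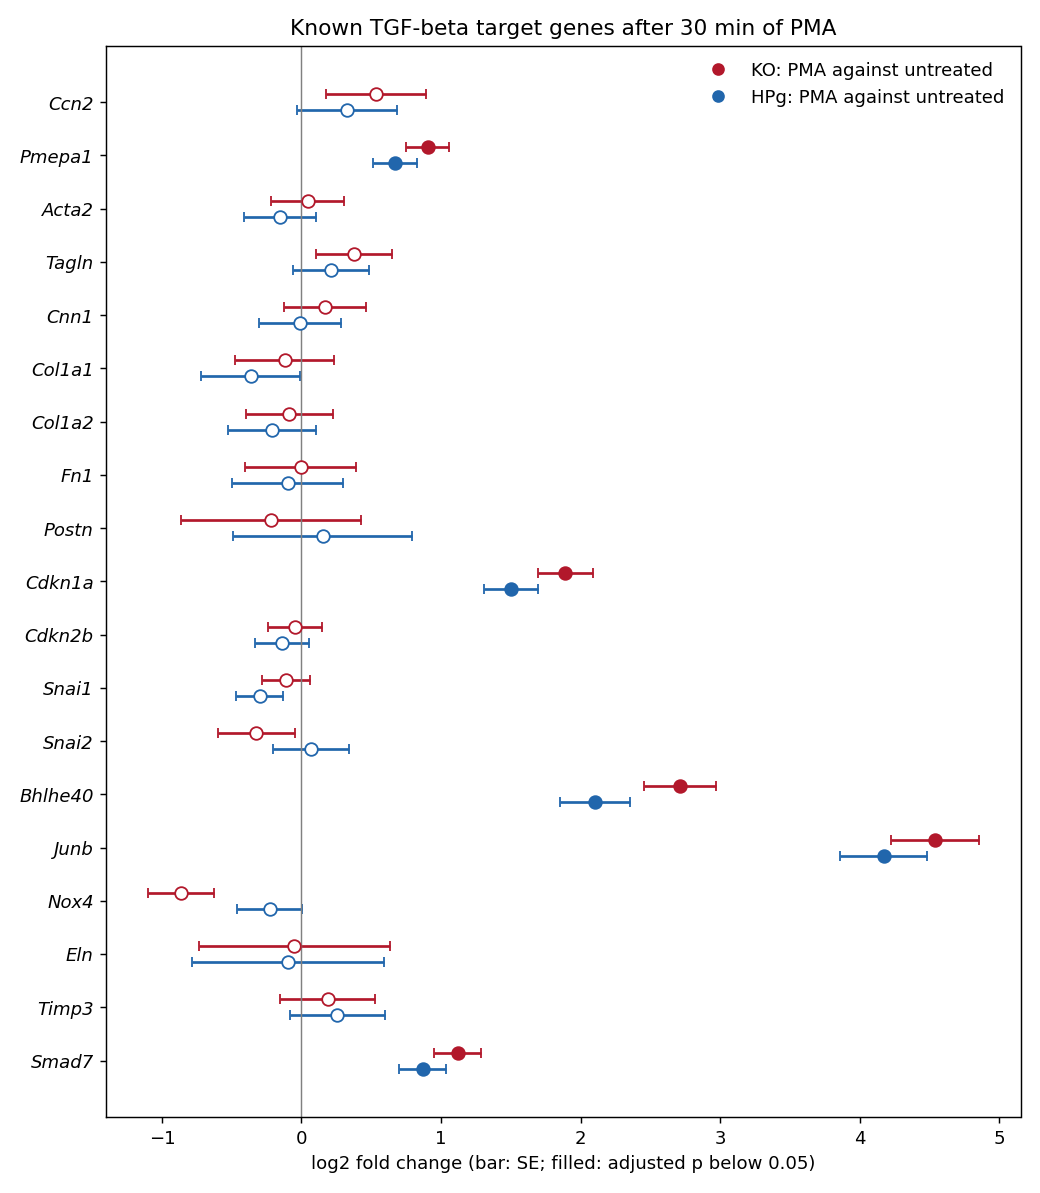
Log2 fold change with PMA of the 18 target genes and of Smad7 (horizontal axis), KO in red and HPg in blue, with bars of 1 SE and filled points for an adjusted p below 0.05. Pmepa1, Cdkn1a, Bhlhe40, Junb and Smad7 are filled in both lines, and the collagen, elastin and actin genes are open in both, with wide bars.

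None of the 8 receptor genes, 16 tested genes of the latent complex and its activation, 7 other ligands and antagonists or 6 other corepressors was called with PMA in either line. Over all tested genes 2.81% were called higher and 1.63% lower in KO, and 2.53% and 0.92% in HPg cells. Medians of the log2 fold change were -0.23 in KO and -0.19 in HPg cells for receptors, -0.04 and -0.10 for the latent complex, -0.13 and -0.15 for other ligands, and 0.08 and 0.16 for corepressors. Tgif2, the paralog of Tgif1, had 11.7 ± 1.30 CPM in KO PMA and 5.56 ± 1.39 CPM in KO cells (1.07, adjusted p = 0.0688), and 9.71 ± 1.84 CPM in HPg PMA and 6.02 ± 2.59 CPM in HPg cells (0.69, adjusted p = 0.252). The block called it in both lines, at 1.10 (adjusted p = 0.000625) and 0.75 (adjusted p = 0.0094). With the block, 6.79% of all genes were called higher and 6.56% lower in KO, and 8.62% and 6.19% in HPg cells. The type I receptor gene Tgfbr1 was called with the block in HPg cells (0.50, adjusted p = 0.0183; 0.49, adjusted p = 0.166 without it). It also called the receptor gene Acvr2b (-0.74, adjusted p = 0.0274) and the integrin gene Itgb8 (-0.48, adjusted p = 0.0487) lower in KO cells, and the receptor gene Acvr1b (-0.37, adjusted p = 0.017) lower in HPg cells. Its calls of the latent-complex genes Ltbp4 (-0.47, adjusted p = 0.0265) and Lrrc32 (-0.44, adjusted p = 0.0246), lower in HPg cells, were lost when the block was combined with a correction for GC content and length (adjusted p = 0.169 and 0.166).

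Between the lines, no gene of any of these lists was called in untreated cells, against 0.806% of all genes called higher and 0.511% lower. With PMA, 2 of 16 genes of the latent complex and its activation and 1 of 18 targets were called higher in KO than in HPg cells, and none lower, where 1.29% of all genes were called higher and 1.18% lower. The integrin chains Itgb3 and Itgb5, partners of the αv chain in integrins that bind latent TGF-β, had 7.69 ± 0.330 CPM in KO PMA and 4.13 ± 0.396 CPM in HPg PMA (0.89, adjusted p = 0.0321) and 199.3 ± 23.8 CPM in KO PMA and 128 ± 5.12 CPM in HPg PMA (0.64, adjusted p = 0.0281). Pmepa1 averaged 77.3 ± 9.15 CPM in KO PMA and 40.9 ± 4.34 CPM in HPg PMA cells (0.92, adjusted p = 0.0127). Of the 7 fits that left out libraries, Itgb3 was called in 2, Itgb5 in 3 and Pmepa1 in 4, with adjusted p up to 0.137, 0.13 and 0.0821. The medians of the lists were 0.25 with PMA and 0.34 without for the latent complex and 0.40 and 0.27 for targets, where those of all genes were 0.01 in both states. In the blocked fit, where 9.49% of all genes were called higher and 9.09% lower with PMA, more list genes were called in KO PMA against HPg PMA. They were 9 of 18 targets, with Ccn2 at 0.97, Pmepa1 at 0.92, Acta2 at 0.48, Cnn1 at 0.41, Col1a1 at 0.41, Cdkn1a at 0.70, Bhlhe40 at 1.00, Eln at 0.91 and Timp3 at 0.44 (adjusted p up to 0.0457). In the latent complex they were 6 of 16, with Ltbp2 at 0.61, Ltbp4 at 0.50, Fbn2 at 0.76, Itgb3 at 0.90, Itgb5 at 0.63 and Thbs1 at 0.88 (adjusted p up to 0.0348). Of 7 other ligands and antagonists, Inhbb (0.37), Fst (0.84) and Fstl3 (0.62) were called higher (adjusted p up to 0.0499), as were Smad3 (0.43, adjusted p = 0.00793) and Acvr1b (0.48, adjusted p = 0.00346), and Acvr2a was called lower (-0.50, adjusted p = 0.0135). With the GC content and length correction added, the calls of Cnn1, Col1a1, Ltbp2, Ltbp4, Inhbb and Fstl3 were lost (adjusted p = 0.112 to 0.403).

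Without PMA, where the blocked fit called 7.08% of all genes higher and 5.44% lower in KO against HPg, 4 targets were called higher, with Ccn2 at 0.76, Pmepa1 at 0.68, Eln at 0.86 and Timp3 at 0.48 (adjusted p up to 0.0109). Of the latent complex 5 were called higher, with Ltbp2 at 0.61, Fbn2 at 0.75, Itgb3 at 0.72, Itgb5 at 0.48 and Thbs1 at 0.84 (adjusted p up to 0.044), and Lrrc32 was called lower (-0.51, adjusted p = 0.0127). Fst (0.74), Smad3 (0.37), Acvr1b (0.38) and Acvr2b (0.72) were also called higher, with adjusted p up to 0.032.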

How the data were processed

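Per the labels' protocols, total RNA without ribosomal RNA went into directional, paired-end libraries, 12 in all. The authors deposited raw counts per gene (whole numbers, from the values). The submitters' processing notes name cutadapt 1.11, STAR 2.5.0a, Subread, featureCounts 1.4.6-p3 and the build mm9. Strand setting and annotation release: not given in the sources used here, so counts of overlapping genes are uncertain. Symbols, lengths and overlaps were taken from GENCODE M21 (GRCm38), which named 32620 of 37310 genes. Because the builds differ, the only coordinates printed are those of promoter windows, from RefSeq on GRCm38.p6.

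Differences were tested in edgeR 4.0.16 under R 4.3.3 by the quasi-likelihood test, with TMM factors, robust estimation and filterByExpr (minimum count 10, minimum total 15), which left 16630 genes. One fit held all 12 libraries with a coefficient per group and 8 residual degrees of freedom. SE was the log2 fold change divided by the root of F. P-values were adjusted by Benjamini-Hochberg over all tested genes in each of 5 comparisons, the 4 pairs of groups and the interaction. They measure the spread between libraries of 1 line each. CPM per kb uses the union of exons.

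Replicate numbers recur in all groups. The pairing check compared deviations from group means: libraries with equal numbers correlated at 0.159 to 0.558 (18 pairs), and those with unequal numbers at -0.517 to 0.163 (36 pairs). By this check the numbers pair the samples, on the evidence of these data alone. The calls in the text come from the fit without a block unless stated, and the log2 fold change with the block is given where it changes a call of a member or a pathway gene. No libraries were duplicates of each other by a chi-square test of their counts.

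The members, pathway lists, markers and motifs were chosen with earlier results of these data known. All 9 members and each list gene called without the block are named; other list genes were named after their values were seen. A target gene is not reported here and was left out of its list's counts and medians. Scripts were tested on simulated data. Alternatives were RLE factors, library size alone, no filter, the block, the block with a GC content and length correction (94.8% of genes had values), DESeq2 1.42.0, fits of 2 groups and leaving out each library. Leaving out the 4 libraries numbered 2 was added after seeing the data.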

Additional observations from a re-analysis of the deposited data

How the results depend on the processing

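Limits. The 6 member calls, Tgfb1, Skil and Tgif1 in KO PMA against KO, Skil and Tgif1 in HPg PMA against HPg, and Tgfb3 in KO PMA against HPg PMA, kept their sign in every alternative run. Of 39 member values that were not called, 18 changed sign in some alternative. With 3 libraries a group, and a spread that follows the library number, the tests without a block were wide for Tgfb2 and Ski. Where a call changed, the cause was not tested.

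All genes called were 739 in KO PMA against KO, 574 in HPg PMA against HPg, 411 in KO PMA against HPg PMA, 219 in KO against HPg and 0 in the interaction. In that order for the 4 pairs of groups, the replicate block gave 2221, 2462, 3090 and 2083, the block with the GC and length correction 2873, 2256, 3703 and 4009, and DESeq2 1279, 1212, 1184 and 775, with 1 in the interaction. Fits of only 2 groups gave 222 in HPg PMA against HPg and 12 in KO against HPg. Without single libraries, or without those numbered 2, the counts ranged from 295 to 604, from 244 to 409, from 60 to 1359, from 46 to 592, and from 0 to 1 in the interaction. The block with the GC and length correction turned the split in KO against HPg to 1051 higher and 2958 lower (134 and 85 as reported), and in KO PMA against HPg PMA to 1284 and 2419 (215 and 196). In HPg PMA against HPg it gave 1125 higher and 1131 lower (421 and 153). Its median over all genes in KO against HPg moved by -0.12. Library size alone moved the median in KO PMA against KO by -0.13, with 307 genes higher and 424 lower there (468 and 271).

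Members called in KO PMA against HPg PMA numbered 1, against 0 with library size alone, 2 with no filter (Tgfb3 and Inhba), 4 with the block, 8 with the block and the GC and length correction (all but Tgfbi) and 3 with DESeq2 (Tgfb1, Tgfb3 and Inhba), and 0 to 3 without libraries. The 8 were 4 higher and 4 lower, in a fit that called 1284 of all 16630 genes higher and 2419 lower. In KO PMA against HPg PMA, DESeq2 called 591 genes higher and 593 lower, no filter 191 and 174, and library size alone 163 and 217. The fit of 2 groups called Tgfb1 there in place of Tgfb3. In KO against HPg the members called numbered 0, against 2 with the block and 5 with the block and the correction (Tgfb1, Tgfb2, Tgfb3, Inhba and Ltbp1), and 0 to 1 without libraries. The 5 were 2 higher and 3 lower, in a fit that called 1051 of all 16630 genes higher and 2958 lower. The block changed no member call other than those given for Tgfb1, Tgfb2, Tgfb3 and Inhba.

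Some values that turned were called with the block (Ccn2, Inhbb and Ltbp2), or with it and the correction (Tgfb2 and Ski). Directions that turned were all of values not called in the fit without a block. With library size alone they were Ltbp1 in KO PMA against KO (-0.12), Tgfb3 (-0.041) and Tgfbi (-0.013) in HPg PMA against HPg, and Ski in the interaction (-0.026). With the block and the correction they were Ski (-0.078) and Skil (0.19) in the interaction. When libraries were left out, the ranges in KO PMA against KO were -0.085 to 0.14 for Ltbp1, -0.29 to 0.037 for Tgfbi and -0.36 to 0.22 for Ski. In HPg PMA against HPg they were -0.49 to 0.10 for Tgfb2, -0.13 to 0.11 for Tgfb3, -0.25 to 0.23 for Inhba, -0.033 to 0.27 for Ltbp1, -0.093 to 0.20 for Tgfbi, -0.40 to 0.21 for Ski and -0.036 to 0.76 for Ccn2. In KO PMA against HPg PMA they were -0.38 to 0.15 for Ski and -0.074 to 0.87 for Inhbb. In KO against HPg they were -0.70 to 0.094 for Tgfb2, -0.48 to 0.20 for Ski, -0.22 to 0.061 for Tgif1 and -0.12 to 1.28 for Ltbp2. In the interaction they were -0.13 to 0.32 for Tgfb1, -0.62 to 0.17 for Tgfb2, -0.26 to 0.054 for Ltbp1, -0.31 to 0.36 for Ski and -0.20 to 0.0080 for Skil. Per kb of the longest transcript in place of the union of exons, 5 of the 9 levels in HPg cells moved beyond their spread.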
